A study of Homo sapiens with 8 samples.

Results

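The genes described here act in homologous recombination, the Fanconi anaemia pathway and the DNA damage checkpoint, and their expression was compared in liver cancer cells treated with plastic-related antioxidants. The 35 members were taken by gene symbol from a table of 60230 genes, and all 35 were found and passed the filter on low counts. RNA was sequenced from HepG2 cells, a human liver cancer cell line, with 2 libraries in each of 4 groups. All groups overexpressed CYP2C19, a cytochrome P450 enzyme that oxidises many drugs, and cells without the overexpression were not analysed here. Control cells received the solvent DMSO, and the others received compound 4 (labelled metylcresol), compound 5 (labelled tetrabut) or compound 6 (labelled cyclohexil) for 24 h. Each compound was given at its own IC50, the inhibitory concentration that an earlier viability test of that compound had set. The doses were thus chosen by effect and not as 1 shared concentration. The study describes the IC50 values of compounds 4, 5 and 6 as rather comparable. Its viability test ran for longer than the 24 h of treatment here. Compounds 4 and 6 are bisphenols with a methylene bridge, and they differ in carrying tert-butyl or cyclohexyl groups, respectively. Compound 5 has an ethylidene bridge and carries further tert-butyl groups where the other two have methyl groups. The labels give the 2 libraries of each group as day 1 and day 2, here replicates 1 and 2. They do not say whether these were separate cultures, so the p-values measure the spread between these libraries, which may be technical. The column labels of DMSO replicate 1 and compound 4 replicate 1 carry the word merged, and those of the other libraries do not. What was merged is not stated.

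Homologous recombination repairs broken DNA by copying the intact sister chromatid, and cells use it mainly in S and G2 phase. Broken ends are sensed and trimmed to single strands, the BRCA proteins load the strand-exchange recombinase onto these strands, and paralogues and translocases help it to find and invade the matching sequence. The Fanconi anaemia pathway removes crosslinks between DNA strands at stalled replication forks, and hands the resulting breaks to recombination. The checkpoint kinases ATM and ATR signal such damage and hold the cell cycle. Many of these genes are transcribed at a higher level in dividing cells. In bulk RNA, fewer cells in S and G2 phase and less RNA of a gene per cell cannot be told apart.

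The total count per library was between 9791659 and 17814595. All 8 hepatocyte markers were detected in every library, with summed levels between 28000 and 44100 CPM, which are counts scaled to a library total of 1000000. The sums were 44100 and 41900 CPM in the DMSO libraries and between 28000 and 36800 CPM in the treated libraries, all below the controls. Compound 4 lowered AFP, APOA1 and TF, by log2-fold changes of −0.71, −0.90 and −0.52 (adjusted p = 0.016, 0.015 and 0.028). With this compound 6 of the 8 markers had fitted values below 0, and TTR and HNF4A were above, at 0.25 and 0.09. Compound 6 gave −0.55, −0.91 and −0.57 for AFP, APOA1 and TF, none with an adjusted p under 0.05 (0.088, 0.051 and 0.058). Compound 5 raised FGB, by 0.53 (adjusted p = 0.030). The part of these marker differences in the results on the members was not tested. Of 10 markers of other cell types, 4 or 5 were at 0 in each library, among them PTPRC, CD3E and COL1A2 in all 8 libraries. The summed level of the 10 was between 164 and 209 CPM, most of it from the biliary marker SOX9, at between 110 and 172 CPM. Of the 10 markers, PDGFRB rose with compound 4, from 9.12 and 5.02 CPM to 23.2 and 25.3 CPM, and so did CD68, from 24.7 and 20.1 CPM to 39.3 and 38.6 CPM (adjusted p = 0.0063 and 0.016). The part of PDGFRB and CD68 in the results below was not tested. CPM values here are scaled by the normalization factors of the fit.

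Under DMSO the members covered a wide range of levels. Per kilobase of merged exon, the level was highest for RAD54L, a translocase that moves DNA during strand exchange, at 13.4 ± 2.9 CPM per kilobase (SD, n = 2). It was lowest for FANCB, a subunit of the Fanconi core complex, at 0.992 ± 0.113 CPM per kilobase. FANCI, FANCA and RAD50 followed RAD54L, at 10.4 ± 1.39, 9.33 ± 0.934 and 8.82 ± 0.045 CPM per kilobase. FANCI and FANCA, and FANCA and RAD50, differed by less than the larger SD of the pair. BRCA1 stood at 6.08 ± 0.681 and BRCA2 at 2.28 ± 0.36 CPM per kilobase. FANCB had the lowest count of any member in a single library, which was 17 reads. In DMSO replicate 2, 32 of the 35 members were above DMSO replicate 1, compared to 48.2% of all 13400 genes tested.

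**Figure D1:**
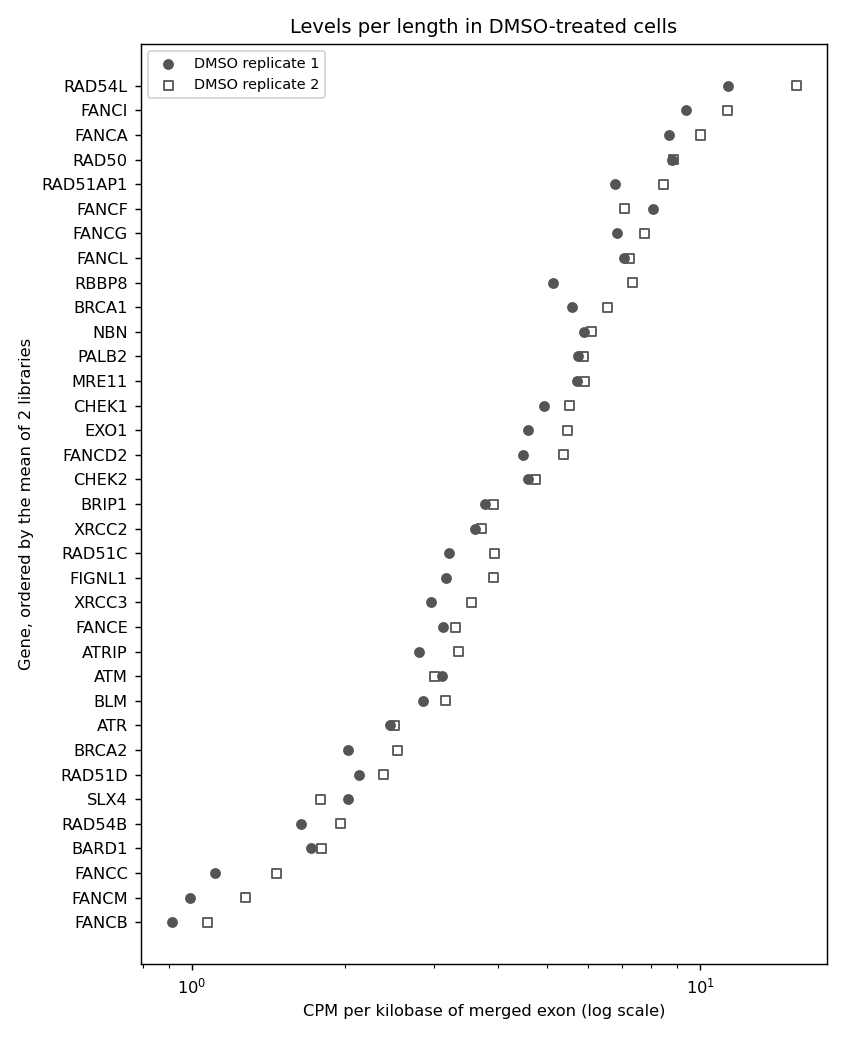
Level of each of the 35 members in the 2 DMSO libraries, in CPM per kilobase of merged exon on a log axis, ordered by the mean of both libraries (filled circles for replicate 1, open squares for replicate 2). RAD54L is at the top with a mean of 13.4 and FANCB at the bottom with 0.992.

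Compound 4 lowered 9 of the 35 members and raised 0, compound 5 lowered 5 and raised 0, and compound 6 changed 0 past the threshold. The threshold was an adjusted p under 0.05 in the quasi-likelihood test of edgeR, adjusted over all 13400 genes tested. Over all genes tested, compound 4 lowered 3.91% and raised 5.6%, compound 5 lowered 2.95% and raised 5.35%, and compound 6 lowered 0.0821% and raised 0.493%. At an unadjusted p under 0.05, compounds 4, 5 and 6 had 20, 10 and 9 members lower and 0 higher, and DESeq2 called 9, 3 and 0 members. Of all 13400 genes tested, 1665, 1721 and 1035 were lower and 2023, 2090 and 1455 higher at this unadjusted level. DESeq2 called 1384, 1284 and 518 of all genes tested, in either direction. The median log2-fold change of the 35 members was −0.52 with compound 4, −0.25 with compound 5 and −0.31 with compound 6, whereas the medians over all genes tested were 0.01, 0.0 and 0.02. All 3 comparisons share the DMSO libraries, so they are not independent of each other.

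**Figure D2:**
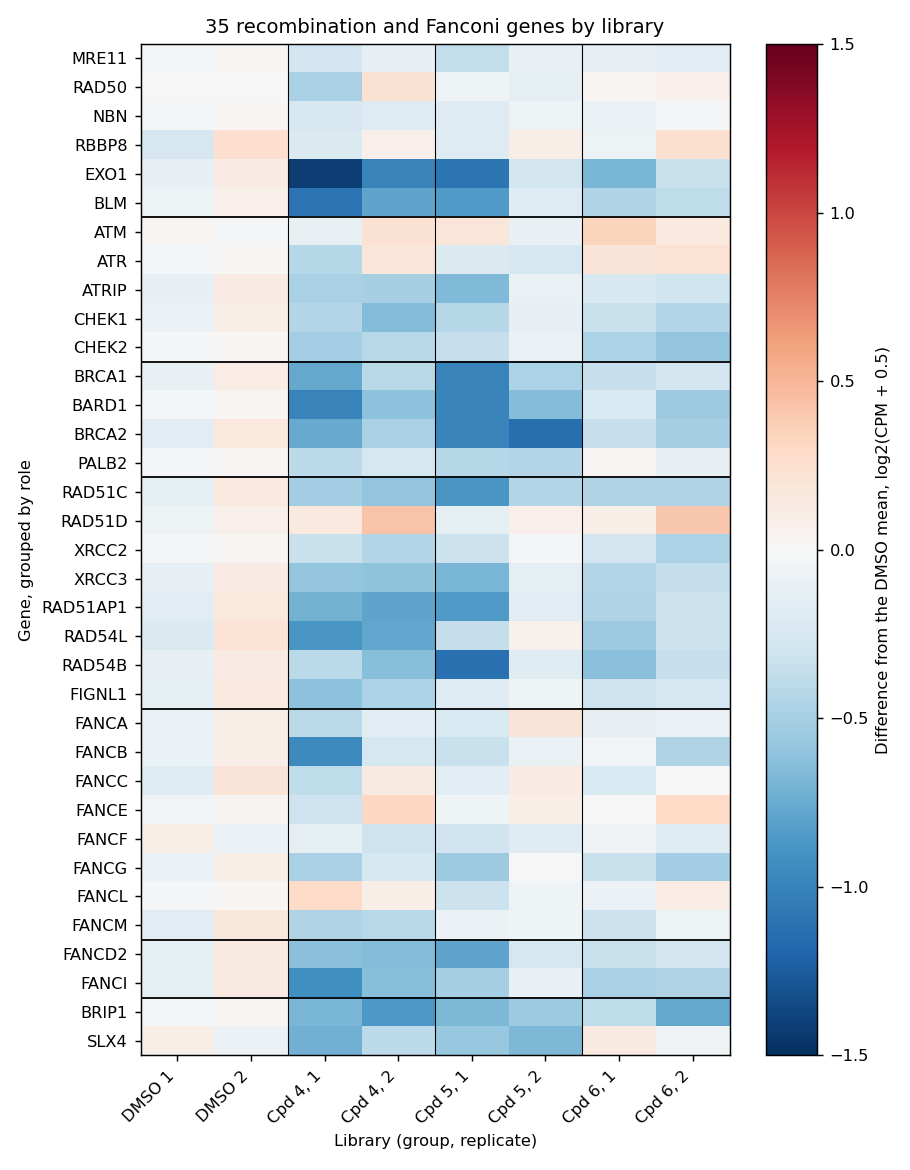
Log2(CPM + 0.5) of each library relative to the DMSO mean, with 1 row per member, grouped by role, and 1 column per library (blue is lower, red is higher). The medians over the 35 members were −0.48 and −0.42 in the compound 4 libraries, −0.37 and −0.12 in the compound 5 libraries, and −0.27 and −0.28 in the compound 6 libraries.

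The calls depended on single libraries, those of DMSO included. Without DMSO replicate 2, 0 members passed the threshold for compound 4 and 0 for compound 5, and without DMSO replicate 1 the counts were 2 and 1. Without compound 4 replicate 1 or 2, compound 4 had 1 and 0 members past the threshold. Without compound 5 replicate 1 or 2, compound 5 had 1 and 12 members past it, and compound 4 had 15 in both fits. Without either library of compound 6, compound 4 had 5 and compound 5 had 2 members past the threshold. The median of the members stayed below 0 in each of these fits, from −0.64 to −0.41 with compound 4, from −0.39 to −0.13 with compound 5 and from −0.42 to −0.18 with compound 6. Taking each treated library against the DMSO library of the same day, compound 4 gave medians of −0.40 on day 1 and −0.46 on day 2. Compound 5 gave −0.35 and −0.21, and compound 6 gave −0.16 and −0.41.

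Promoters are shown for BARD1, BRIP1 and BRCA2, the members that passed the threshold for both compound 4 and compound 5. The windows searched were the 250 bases upstream of the RefSeq start on GRCh38.p14. The sequences below run 5′ to 3′ on the strand of the gene, and stop where GENCODE 29 starts the gene if that lies inside the window. They cover chr2:214809712-214809933 on the minus strand for BARD1 (222 bases), chr17:61863529-61863778 on the minus strand for BRIP1 (250 bases) and chr13:32315258-32315473 on the plus strand for BRCA2 (216 bases). Capitals mark matches to 4 motifs that are common before cell cycle genes, searched on both strands.
BARD1: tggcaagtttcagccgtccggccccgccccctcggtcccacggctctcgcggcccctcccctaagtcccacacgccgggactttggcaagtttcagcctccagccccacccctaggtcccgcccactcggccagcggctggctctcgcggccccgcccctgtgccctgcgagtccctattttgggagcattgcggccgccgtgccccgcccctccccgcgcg
BRIP1: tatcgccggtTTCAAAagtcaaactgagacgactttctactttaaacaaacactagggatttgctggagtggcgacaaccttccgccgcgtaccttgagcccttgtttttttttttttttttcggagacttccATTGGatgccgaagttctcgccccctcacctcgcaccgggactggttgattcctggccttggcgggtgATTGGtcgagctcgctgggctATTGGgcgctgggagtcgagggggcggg
BRCA2: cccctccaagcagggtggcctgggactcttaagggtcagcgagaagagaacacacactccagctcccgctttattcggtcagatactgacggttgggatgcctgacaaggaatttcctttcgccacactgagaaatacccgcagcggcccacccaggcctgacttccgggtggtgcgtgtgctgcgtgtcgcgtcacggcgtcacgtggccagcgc
The motifs were 2 forms of the E2F site (TTTCCCGC and TTTGGCGC), the cell cycle genes homology region (CHR, TTTGAA) and the CCAAT box (CCAAT). BRIP1 held a CHR on the reverse strand at position −240 and a CCAAT box on the reverse strand at −117, −49 and −28, counted from the start site. The windows of BARD1 and BRCA2 held 0 matches, which says only that these letters are not in these windows. RefSeq promoters were matched for 32 of the 35 members, and NBN, RAD54B and FANCI had no entry. Of these 32, 14 held a CCAAT box (43.8%, against 32.0% of 35116 promoters), 3 a CHR (9.38%, against 13.3%), 1 the first form of the E2F site (3.12%, against 1.39%) and 0 the second form (against 0.55%). Each member entered with 1 start, while the 35116 promoters hold every distinct start of a gene, so these shares are of unlike sets. The whole window of CHEK1, which held a CCAAT box, lay past the GENCODE 29 start, as did all but 13 bases for EXO1.

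Gene positions below are on GRCh38 from GENCODE 29. Among the genes that sense and trim broken ends, compound 4 lowered EXO1 and BLM and none of the MRE11 complex. EXO1 (chr1:241847967-241895148), an exonuclease that extends the trimmed strand, stood at 19.0 and 22.7 CPM in the DMSO libraries, at 7.41 and 10.1 CPM with compound 4, at 9.47 and 17.1 CPM with compound 5 and at 12.7 and 16.4 CPM with compound 6. All treated libraries were below both DMSO libraries. Its log2-fold change was −1.24 ± 0.28 (SE) for compound 4, so that its level decreased by 57.7% (adjusted p = 0.026), the largest decrease of any member. For compound 5 it was −0.64 ± 0.27 (adjusted p = 0.15) and for compound 6 −0.52 ± 0.27 (adjusted p = 0.34). With the replicate block EXO1 also passed the threshold for compound 5, at an adjusted p of 0.041 (0.013 to 0.53 over the 14 alternatives).

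BLM, the helicase that unwinds ends for trimming and dissolves crossed strands, stood at 19.0 and 21.0 CPM under DMSO, 9.01 and 11.3 CPM with compound 4, 10.9 and 17.4 CPM with compound 5, and 14.5 and 15.3 CPM with compound 6. Here too the treated libraries were all below the controls. The log2-fold change for compound 4 was −0.97 ± 0.22 (adjusted p = 0.027), while those for compounds 5 and 6 were −0.49 ± 0.21 and −0.43 ± 0.22 (adjusted p = 0.17 and 0.33).

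The 3 subunits of the complex that first binds broken ends did not pass the threshold for any compound. MRE11, its nuclease, had log2-fold changes of −0.20, −0.24 and −0.14 for compounds 4, 5 and 6, and NBN, which links the complex to ATM, had −0.23, −0.14 and −0.06. RAD50, the subunit that tethers both ends, was at 85.9 and 86.5 CPM under DMSO but at 61.5 and 101 CPM with compound 4, so that the 2 treated libraries lay on either side of the controls. RBBP8, which activates the nuclease, had log2-fold changes of −0.09, −0.07 and 0.07. RAD50 shares exon sequence on the same strand with an annotated transcript, AC116366.3.

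Of the 5 checkpoint genes, only CHEK1 passed the threshold, and only for compound 4 in this test. CHEK1, the kinase that ATR activates, was at 32.3 and 36.3 CPM under DMSO and at 25.1 and 21.7 CPM with compound 4. The libraries of compound 5 had 25.3 and 31.4 CPM and those of compound 6 had 27.2 and 25.1 CPM. The log2-fold change for compound 4 was −0.56 ± 0.15, so that its level decreased by 32.0% (adjusted p = 0.048), against −0.27 ± 0.15 for compound 5 and −0.39 ± 0.15 for compound 6. The adjusted p for compound 4 lay near the threshold and was 0.053 in the Wald test of DESeq2 (0.010 to 0.30 over the 14 alternatives).

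CHEK2, the kinase that ATM activates, was lower in both libraries of all 3 compounds than under DMSO. Its log2-fold changes were −0.48 ± 0.14, −0.22 ± 0.14 and −0.55 ± 0.15 for compounds 4, 5 and 6, with adjusted p-values of 0.068, 0.33 and 0.11. In the fit of only the 4 samples compared, CHEK2 passed for compound 6 at an adjusted p of 0.041 (0.041 to 0.53 over the 14 alternatives). CHEK2, FANCD2 and BRCA1 have pseudogene copies in the genome, among which reads can be split.

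ATM and ATR, the kinases at the head of the checkpoint, gave no call. ATM was at 74.3 and 71.9 CPM under DMSO and at 92.1 and 80.9 CPM with compound 6, and its log2-fold changes were 0.07 ± 0.15, 0.04 ± 0.15 and 0.24 ± 0.15 for compounds 4, 5 and 6. ATR had −0.09 ± 0.18, −0.25 ± 0.18 and 0.21 ± 0.18. ATRIP, the partner that brings ATR to single strands, had −0.52, −0.37 and −0.28, with adjusted p-values of 0.13, 0.25 and 0.49. ATM and ATR were thus among the few members with fitted values above 0 for compound 6, where 8 of 35 were above 0 and 27 below.

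The 4 genes of the BRCA complexes were lower in both libraries of compounds 4 and 5 than in both DMSO libraries. BRCA2 (chr13:32315474-32400266), the protein that loads the recombinase, showed 24.9 and 31.2 CPM under DMSO, 16.2 and 19.7 CPM with compound 4, 13.7 and 12.5 CPM with compound 5, and 21.9 and 19.6 CPM with compound 6. The compound 5 libraries were the lowest of the 8. Its log2-fold change was −1.10 ± 0.16 for compound 5, so that its level decreased by 53.4% (adjusted p = 0.0075), the largest decrease of any member for this compound. It was −0.64 ± 0.16 for compound 4 (adjusted p = 0.037) and −0.44 ± 0.16 for compound 6 (adjusted p = 0.19). Of the 14 alternatives, 13 kept the call for compound 5, and the exception was the fit without DMSO replicate 2, with an adjusted p of 0.089.

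BARD1, the partner that BRCA1 needs as a ubiquitin ligase, was at 10.4 and 10.9 CPM under DMSO and was lower with each compound. With compound 4 it was at 5.07 and 6.77 CPM and with compound 5 at 5.10 and 6.60 CPM, whereas compound 6 gave 9.03 and 7.11 CPM. The log2-fold changes were −0.84 ± 0.23 and −0.85 ± 0.22 for compounds 4 and 5 (adjusted p = 0.048 and 0.047) and −0.40 ± 0.22 for compound 6 (adjusted p = 0.37). Both calls were lost in the Wald test of DESeq2, with adjusted p-values of 0.093 for compound 4 (0.0061 to 0.25 over the 14 alternatives) and 0.085 for compound 5 (0.0056 to 0.23). The call for compound 5 was also lost in the fit of only the 4 samples compared, at an adjusted p of 0.059.

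BRCA1, which promotes end trimming and recruits PALB2, was at 51.4 and 60.3 CPM under DMSO, 32.5 and 41.7 CPM with compound 4, 27.6 and 40.0 CPM with compound 5, and 43.9 and 46.0 CPM with compound 6. Its log2-fold change passed the threshold for compound 5, at −0.72 ± 0.19 (adjusted p = 0.047), and missed it for compound 4, at −0.59 ± 0.19 (adjusted p = 0.078). For compound 6 it was −0.32 ± 0.19 (adjusted p = 0.40). With the replicate block BRCA1 passed for compound 4 too, at an adjusted p of 0.026. It also passed for compound 4 in the Wald test of DESeq2 (adjusted p = 0.037) and in the fit of only the 4 samples compared (adjusted p = 0.04). In that fit the call for compound 5 was lost at an adjusted p of 0.069. With 1 library left out, the log2-fold changes ran from −0.78 to −0.44 for compound 4 and from −1.02 to −0.49 for compound 5.

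PALB2, the bridge between BRCA1 and BRCA2, had the smallest changes of this group for each compound. It was at 27.3 and 28.0 CPM under DMSO, and its log2-fold changes were −0.34 ± 0.12, −0.44 ± 0.12 and −0.06 ± 0.12 for compounds 4, 5 and 6 (adjusted p = 0.11, 0.055 and 0.84). BRCA1 shares 120 bases of exon on the same strand with an annotated noncoding RNA, AC060780.1.

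**Figure D3:**
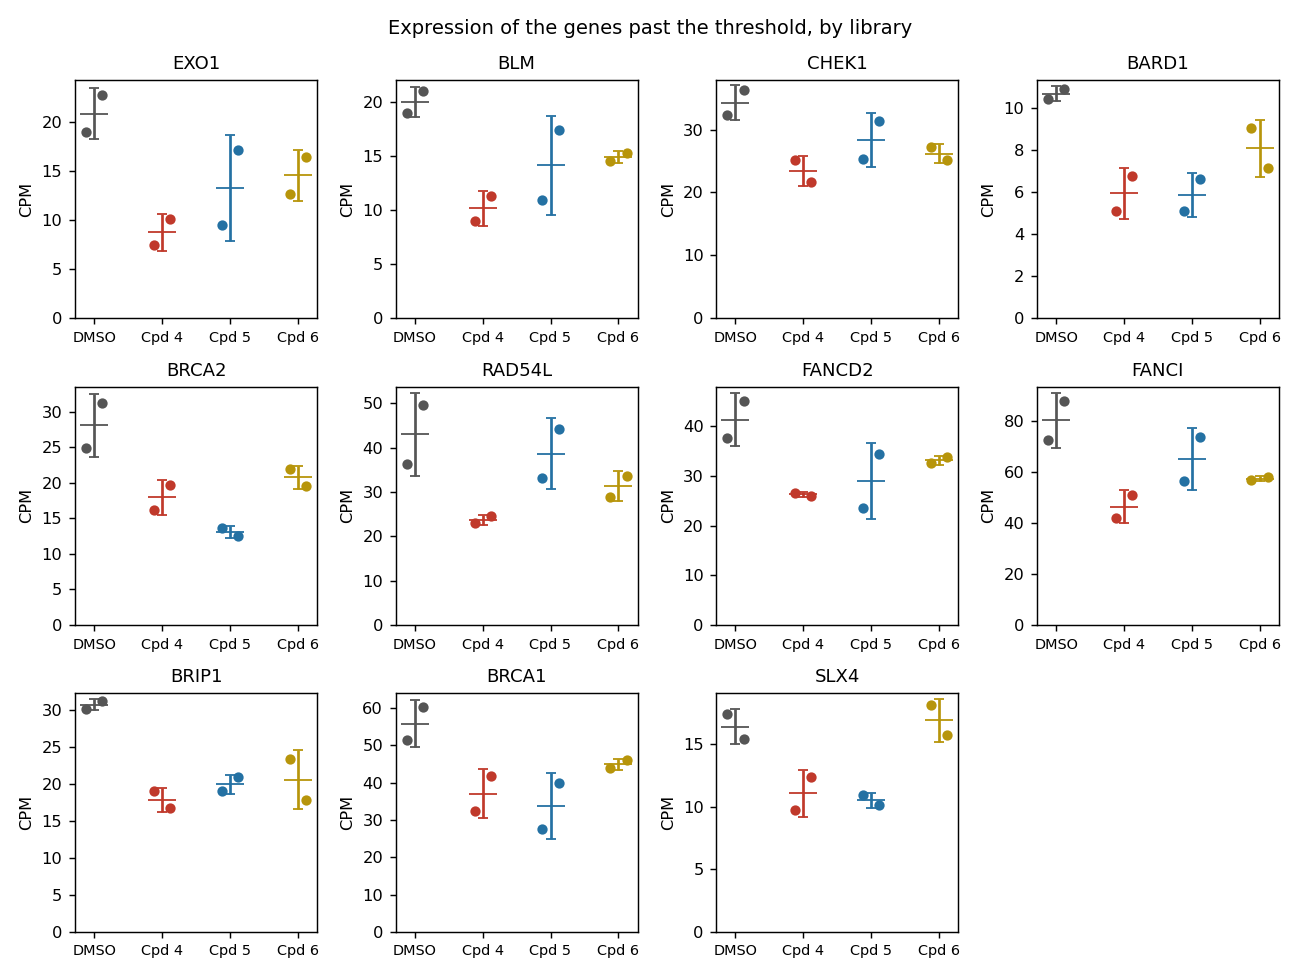
Level in CPM of the 11 members past the threshold for at least 1 compound, with 1 point per library, the mean as a horizontal line and the SD as whiskers (n = 2 per group), on axes that start at 0. BRCA2 with compound 5 (13.7 and 12.5 CPM) and EXO1 with compound 4 (7.41 and 10.1 CPM) show the largest decreases, and SLX4 with compound 6 (18.1 and 15.7 CPM) overlaps DMSO (17.4 and 15.4 CPM).

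Among the 8 recombinase paralogues and strand-exchange factors, RAD54L (chr1:46247688-46278473) was the 1 gene that passed the threshold. It was at 36.4 and 49.6 CPM under DMSO, 23.0 and 24.6 CPM with compound 4, 33.1 and 44.3 CPM with compound 5, and 28.9 and 33.7 CPM with compound 6. The compound 5 libraries overlapped the controls, and those of compounds 4 and 6 lay below them. The log2-fold changes were −0.85 ± 0.19, −0.15 ± 0.18 and −0.46 ± 0.19 for compounds 4, 5 and 6 (adjusted p = 0.025, 0.62 and 0.24). RAD54B, its relative, had −0.57 ± 0.30, −0.60 ± 0.30 and −0.52 ± 0.30, on levels between 4.12 and 10.4 CPM, and none passed.

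Of the other strand-exchange genes, 3 missed the threshold for compound 4 but passed it with the replicate block. They were RAD51AP1, which stimulates strand invasion (log2-fold change −0.79 ± 0.23), XRCC3, a recombinase paralogue (−0.62 ± 0.19), and FIGNL1, an ATPase that removes the recombinase from DNA (−0.57 ± 0.16). Their adjusted p-values were 0.060, 0.067 and 0.051 without the block, and 0.038, 0.042 and 0.032 with it. Over the 14 alternatives these ran from 0.00092 to 0.34, from 0.0067 to 0.36 and from 0.029 to 0.35. RAD51C, a paralogue in both paralogue complexes, had −0.58, −0.66 and −0.48 for compounds 4, 5 and 6, and the block brought it past the threshold for compound 5, at an adjusted p of 0.039 instead of 0.050 (0.0072 to 0.29 over the 14 alternatives).

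RAD51D, a paralogue, was the member with the highest fitted value for compounds 4 and 6. It was at 24.1 and 26.9 CPM under DMSO, 28.2 and 34.4 CPM with compound 4, and 27.0 and 33.9 CPM with compound 6. Both treated groups thus lay above both DMSO libraries, but the log2-fold changes of 0.30 ± 0.16 and 0.26 ± 0.16 did not pass (adjusted p = 0.27 and 0.43). With compound 5 it was −0.02 ± 0.16. RAD51D shares exon sequence on the same strand with the readthrough transcript RAD51L3-RFFL. XRCC2, the paralogue that pairs with it, had −0.40, −0.39 and −0.16 for compounds 4, 6 and 5, and none passed.

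None of the 8 Fanconi core complex genes, whose products form the ubiquitin ligase of the pathway and its anchor, passed the threshold for any compound. At an unadjusted p under 0.05 there were 1, 0 and 1 genes for compounds 4, 5 and 6, against 3688, 3811 and 2490 of all 13400 genes tested. DESeq2 called 0 of the 8, against 1384, 1284 and 518 of all genes tested. Their median log2-fold changes were −0.26, −0.14 and −0.13 for compounds 4, 5 and 6. FANCB gave the lowest value for compound 4, at −0.65 ± 0.35, on levels of 3.28 and 3.85 CPM under DMSO and 1.60 and 2.89 CPM with compound 4. FANCL, the subunit that carries the ligase activity, gave the highest, at 0.20 ± 0.15, with 17.1 and 17.5 CPM under DMSO and 21.3 and 18.6 CPM with compound 4.

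FANCA, a large subunit of the core complex, stood at 84.4 and 97.3 CPM under DMSO, and its log2-fold changes were −0.28, −0.01 and −0.12 for compounds 4, 5 and 6. FANCE, which connects the core complex to its substrate, had 0.04, 0.02 and 0.16. Of the others, FANCM, the translocase that anchors the complex on DNA, had −0.48, −0.09 and −0.22, and FANCG had −0.38, −0.25 and −0.43. FANCF had −0.23, −0.25 and −0.13, and FANCC had −0.12, −0.02 and −0.13.

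The 2 genes of the ID complex, which the core complex ubiquitinates and which clamps onto damaged DNA, were both lowered by compound 4. FANCI (chr15:89243949-89317261) was at 72.8 and 88.0 CPM under DMSO, 41.9 and 51.1 CPM with compound 4, 56.6 and 74.0 CPM with compound 5, and 56.9 and 58.2 CPM with compound 6. FANCD2 was at 37.5 and 45.1 CPM under DMSO, 26.6 and 25.9 CPM with compound 4, 23.6 and 34.4 CPM with compound 5, and 32.5 and 33.8 CPM with compound 6. In all but 1 treated library, FANCI in compound 5 replicate 2, both genes were below both controls. For compound 4 the log2-fold changes were −0.79 ± 0.16 for FANCI and −0.66 ± 0.18 for FANCD2 (adjusted p = 0.019 and 0.048). For compound 5 they were −0.30 ± 0.16 and −0.51 ± 0.18 (adjusted p = 0.24 and 0.099), and for compound 6 they were −0.48 ± 0.16 and −0.32 ± 0.18 (adjusted p = 0.16 and 0.36). In the fit of only the 4 samples compared, FANCI passed for compound 6 at an adjusted p of 0.035 (0.015 to 0.63 over the 14 alternatives).

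Of the factors that act after the ID complex, BRIP1, a helicase that binds BRCA1, was at 30.2 and 31.3 CPM under DMSO. It was at 19.0 and 16.7 CPM with compound 4, 19.1 and 20.9 CPM with compound 5, and 23.4 and 17.8 CPM with compound 6, all below the controls. The log2-fold changes were −0.79 ± 0.16 and −0.62 ± 0.15 for compounds 4 and 5 (adjusted p = 0.016 and 0.039). With compound 6 BRIP1 had the lowest fitted value of all members, at −0.58 ± 0.15, but an adjusted p of 0.11. In the fit of only the 4 samples compared this was 0.045 (0.015 to 0.57 over the 14 alternatives).

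SLX4, the scaffold that holds the nucleases which cut out a crosslink, was at 17.4 and 15.4 CPM under DMSO, 9.76 and 12.4 CPM with compound 4, 10.9 and 10.1 CPM with compound 5, and 18.1 and 15.7 CPM with compound 6. Compound 5 lowered it by a log2-fold change of −0.64 ± 0.17 (adjusted p = 0.048). This call was kept in 6 of the 14 alternatives (0.016 to 0.20) and was lost in the Wald test of DESeq2, at an adjusted p of 0.094, and in the fit of only the 4 samples compared, at 0.064. The value for compound 4 was −0.56 ± 0.17 (adjusted p = 0.070) and for compound 6 it was 0.04 ± 0.17 (adjusted p = 0.92).

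**Figure D4:**
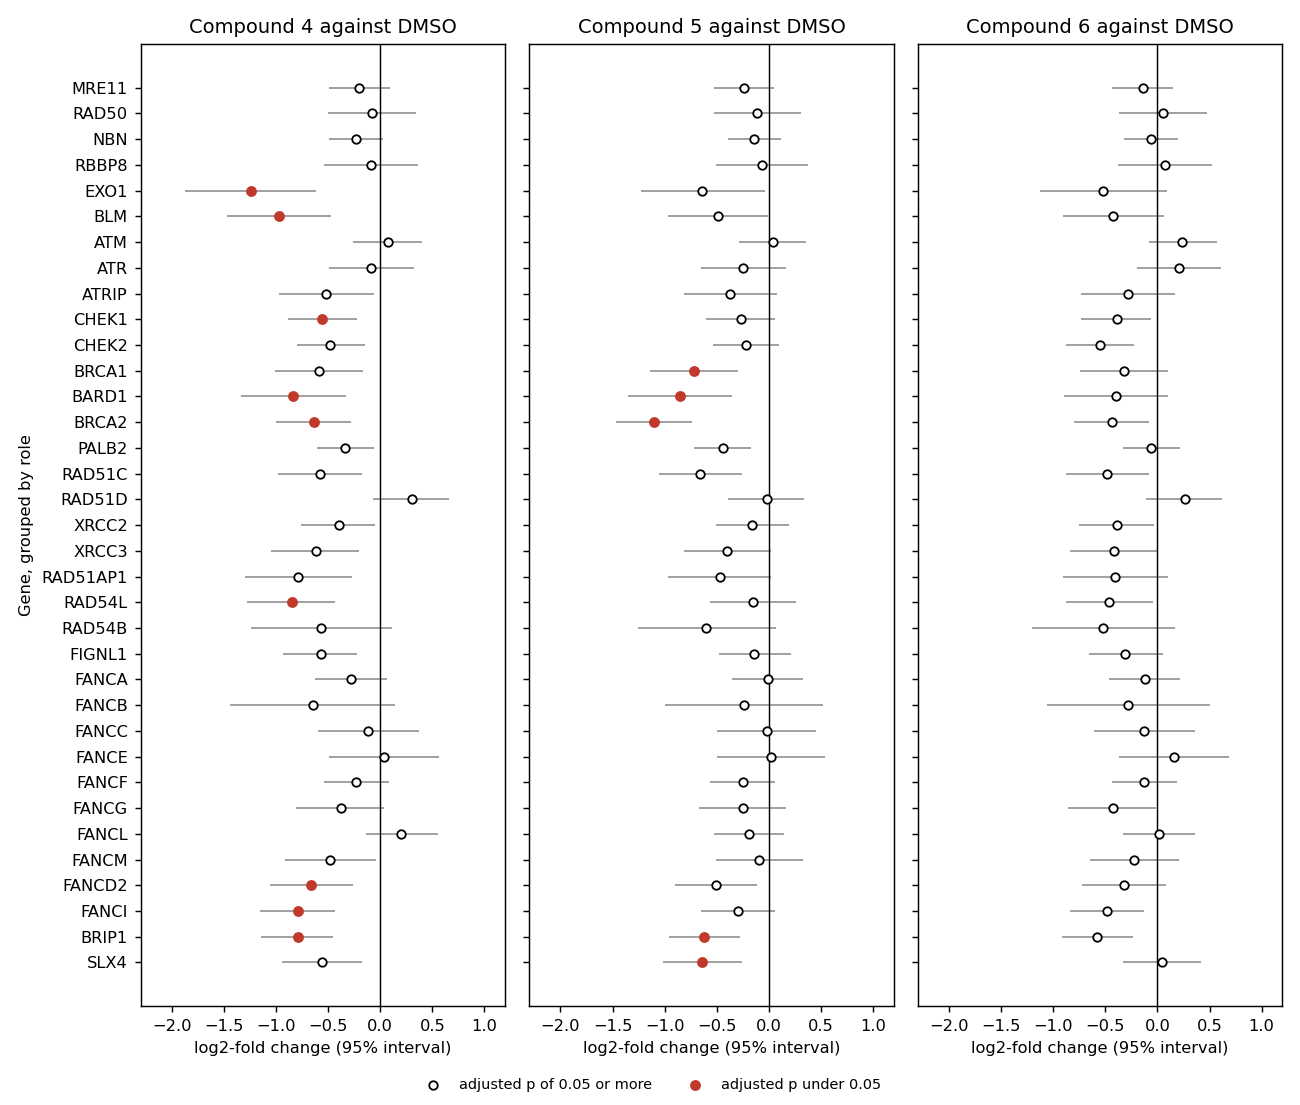
Fitted log2-fold change of each member against DMSO for the 3 compounds, with its 95% interval, grouped by role. Filled red points mark the 9 members past the threshold for compound 4 and the 5 for compound 5, and compound 6 has 0.

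Counted by libraries rather than by the test, both compound 4 libraries were below both DMSO libraries for 27 of the 35 members, against 28.0% of all genes tested. With compound 5 there were 22 of 35, against 28.5%, and with compound 6 there were 21 of 35, against 26.0%. For compound 6, where 0 members passed the adjusted threshold, 9 members had an unadjusted p under 0.05, all lower, against 7.72% of all genes tested that were lower at this level. DESeq2 also called 0 members for compound 6.

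The 3 compounds were also set against each other, which makes 105 tests over the 35 members, with each compound at its own IC50. No member passed the adjusted threshold between compounds 4 and 5, 4 and 6, or 6 and 5, where 0.313%, 0.0% and 1.03% of all genes tested passed, and DESeq2 called 0 members as well. At an unadjusted p under 0.05 there were 5, 4 and 5 members, against 16.2%, 7.05% and 18.5% of all genes tested.

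Compounds 4 and 6, which differ in tert-butyl against cyclohexyl groups, differed most in EXO1, by a log2 difference of −0.72 (95% interval −1.36 to −0.08, adjusted p = 0.63), and in SLX4, by −0.60 (−0.99 to −0.22, adjusted p = 0.47), both lower under compound 4. Compounds 4 and 5 differed most in RAD54L, by −0.70 (−1.12 to −0.28, adjusted p = 0.14), with the lower level under compound 4. For BRCA2 the difference between them was 0.46 (0.09 to 0.83, adjusted p = 0.22), with the lower level under compound 5. The smallest adjusted p of all was that of SLX4 and BRCA2 between compounds 6 and 5, at 0.083, with differences of 0.69 (0.31 to 1.07) and 0.67 (0.30 to 1.03), both lower under compound 5.

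Another 60 genes of recombination, crosslink repair and checkpoint signalling were read from a separate list, and all were tested. Compound 4 lowered 5 of them and compound 5 lowered 7, compound 6 lowered 0, and 0 rose. Over all genes tested, compounds 4, 5 and 6 lowered 3.91%, 2.95% and 0.0821%, and raised 5.6%, 5.35% and 0.493%. At an unadjusted p under 0.05, compounds 4 and 5 had 22 and 20 of the 60 lower and 3 and 3 higher. Of all genes tested, 1665 and 1721 were lower and 2023 and 2090 higher. DESeq2 called 8 and 5 of the 60, against 1384 and 1284 of all genes tested. For compound 6, 12 of the 60 had an unadjusted p under 0.05, 10 lower and 2 higher. Of all 13400 genes tested, 1035 were lower and 1455 higher at this level. DESeq2 called 2 of the 60 genes for compound 6, against 518 of all genes tested. Of these 2, ERCC1 rose (log2-fold change 0.68 in edgeR, adjusted p = 0.028 in DESeq2). H2AX, described below, fell (log2-fold change −0.94 in edgeR, adjusted p = 0.0033 in DESeq2). The medians of the 60 genes were −0.25, −0.25 and −0.14, nearer to 0 than those of the members for compounds 4 and 6. With the replicate block 12 of the 60 genes passed for compound 4 in either direction, against 1699 of all 13400 genes tested. Among the 12 was MUS81, which rose (log2-fold change 0.54 without the block, adjusted p = 0.044 with it).

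H2AX, the histone variant that is phosphorylated around breaks, was at 64.6 and 90.5 CPM under DMSO and at 39.1 and 31.6 CPM with compound 4, a log2-fold change of −1.14 ± 0.24 (adjusted p = 0.021). RMI2, a partner of BLM, was at 33.2 and 34.3 CPM under DMSO and fell with compounds 4 and 5, by log2-fold changes of −0.97 ± 0.21 and −0.94 ± 0.21 (adjusted p = 0.022 and 0.027). CLSPN, the adaptor through which ATR activates CHEK1, also fell with both, by −0.69 ± 0.18 and −0.78 ± 0.18 (adjusted p = 0.043 and 0.032). DCLRE1A, a crosslink repair nuclease, had −0.63 ± 0.17 with compound 4 and −0.82 ± 0.17 with compound 5 (adjusted p = 0.047 and 0.021), and the call for compound 4 was lost in the Wald test of DESeq2 (adjusted p = 0.088).

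RPA2, a subunit of the protein that coats single strands, fell with compound 4, by −0.55 ± 0.15 (adjusted p = 0.047), a call that was lost in the Wald test of DESeq2 (adjusted p = 0.061). SFR1, a cofactor of the recombinase, fell with compound 5, by −1.51 ± 0.36, from 3.48 and 3.35 CPM to 0.988 and 1.37 CPM (adjusted p = 0.035). RECQL5, a helicase that strips the recombinase from DNA, fell with compound 5 as well, by −0.53 ± 0.13 (adjusted p = 0.041). The calls of SFR1 and RECQL5 were lost in the Wald test of DESeq2 too, at adjusted p-values of 0.064 and 0.067. The other route of break repair, end joining, which works without a sister copy, was read from 10 genes, and 0 of them passed the threshold for any compound. At an unadjusted p under 0.05 there were 2, 0 and 1 genes for compounds 4, 5 and 6, against 3688, 3811 and 2490 of all 13400 genes tested. DESeq2 called 1, 0 and 1, against 1384, 1284 and 518 of all genes tested. The medians of the end joining genes were −0.18, −0.14 and 0.02.

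Genes of cell division were lower with compound 4 as well. Of 16 S phase genes, compound 4 lowered 6, compound 5 lowered 0 and compound 6 lowered 0, with medians of −0.63, −0.32 and −0.51. Of 16 genes of G2 and M phase, the counts were 14, 0 and 0, with medians of −0.90, −0.48 and −0.63. Over all genes tested, compounds 4, 5 and 6 lowered 3.91%, 2.95% and 0.0821%. At an unadjusted p under 0.05, compounds 4, 5 and 6 had 14, 6 and 14 of the S phase genes. They had 16, 10 and 15 of the G2 and M phase genes at this level. DESeq2 called 12, 2 and 6 of the S phase genes, and 16, 7 and 11 of the G2 and M phase genes. Of all 13400 genes tested, 3688, 3811 and 2490 were at this unadjusted level, and DESeq2 called 1384, 1284 and 518. With the replicate block compound 5 lowered 8 of the G2 and M phase genes and 1 of the S phase genes. Of all genes tested, 1429 passed with the block for compound 5, in either direction. In compound 5 replicate 2, the S phase median was −0.06, within the range of the DMSO libraries, and that of the members was −0.12, whereas in compound 5 replicate 1 they were −0.64 and −0.37. The BRCA complexes had medians of −0.99 and −0.56 in these compound 5 libraries. The part of the cell division genes in the decrease of the members was not tested.

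**Figure D5:**
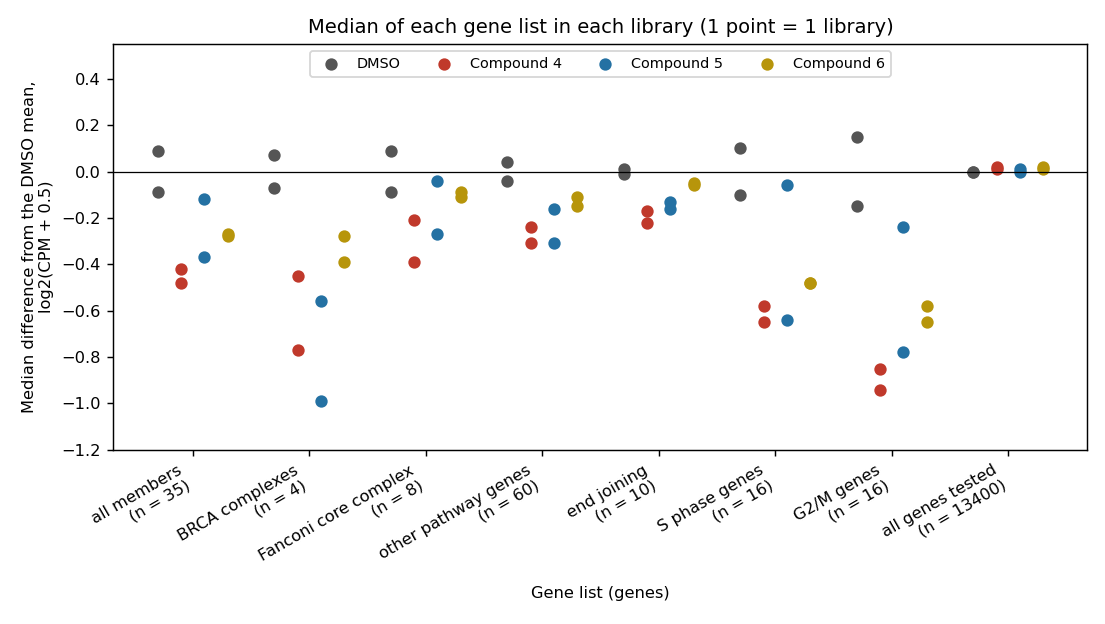
Median of each gene list in log2(CPM + 0.5) relative to the DMSO mean, with 1 point per library, coloured by group (n is the number of genes in a list). The medians of all genes tested lie between 0.0 and 0.02, and the G2 and M phase genes are the lowest with compound 4, at −0.94 and −0.85.

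Some members share exons with neighbours, and the sources used here do not state whether the counting used the strand. On the same strand, ATRIP overlaps TREX1, RAD54B overlaps FSBP and CHEK1 shares 80 bases with STT3A. On the opposite strand, XRCC3 overlaps KLC1, FANCA overlaps ZNF276, FANCI overlaps POLG and RAD54L overlaps LRRC41.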

How the data were processed

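Total RNA was extracted from 8 samples, 2 in each of 4 groups (DMSO and compounds 4, 5 and 6), and isolated mRNA was sequenced with a directional library kit and paired reads of 150 bases. Per the labels and the methods of the study, the authors checked the reads with FastQC 0.12.0, quantified transcripts with Salmon 1.5.0 against a GENCODE 38 index (GRCh38), used tximeta to sum them by gene, and deposited unnormalized counts in whole numbers for 60230 genes. A setting for strand is not given in the sources used here. Salmon assigns reads shared by similar transcripts by estimation, so genes with overlapping or near-identical copies are uncertain.

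The quasi-likelihood test of edgeR 4.0.16 (R 4.3.3) was run on the counts with TMM factors, and filterByExpr kept genes at a minimum count of 10. All 8 samples entered 1 fit with the group as its term and no block. Benjamini-Hochberg adjustment covered the 13400 genes tested, at a threshold of 0.05. The SE is the absolute log2-fold change divided by the square root of the F statistic. No permutation test was used, since 2 against 2 samples cannot pass the threshold. The 6 comparisons were each compound against DMSO and the compounds against each other. Symbols were matched for 60089 genes and exons were taken from GENCODE 29. Promoter sequences came from RefSeq, with the start nearest to the GENCODE 29 start where a member had several.

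The members and the other gene lists were chosen with earlier results of these data known, so no set test was made. Named genes are the members past the threshold in any comparison, the 3 highest and 3 lowest members per compound, the members with the highest and lowest level, the extremes of each role group under compound 4 and up to 5 other pathway genes past the threshold per comparison. The remaining members are given by role group. As alternatives, DESeq2 1.42.0 (Wald test), its size factors in edgeR, the replicate block, a fit restricted to the 4 samples of a comparison, no filter, a stricter filter of 10 counts in all samples and fits without 1 library were run. The values within a day were added after seeing the data. The pairing comes from the day in the labels, and the correlation of the replicate differences was between −0.149 and 0.236 over the pairs of groups. The scripts were tested on simulated data. Figures were drawn in Python 3.11.15 with matplotlib 3.10.9.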

Additional observations from a re-analysis of the deposited data

How the results depend on the processing

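The medians of the 35 members kept their sign under all alternatives run, and 0 of the 14 calls of single members against DMSO changed sign. All 14 calls held with the size factors of DESeq2, with at least 10 counts in every sample, without a filter and with the replicate block, 10 held in the Wald test of DESeq2 and 11 in the fit of only the 4 samples compared. Leaving out 1 library kept between 0 and 13 of them.

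With the replicate block, compounds 4, 5 and 6 had 13, 7 and 0 members past the threshold, against 1699, 1429 and 68 of all 13400 genes tested. The block changed no other call of a member than the 6 gains named above. Without a filter on low counts the members past the threshold were 15, 8 and 3 for compounds 4, 5 and 6, and 2, 1 and 2 between compounds 4 and 5, 4 and 6, and 6 and 5. In the Wald test of DESeq2 there were 9 for compound 4 and 3 for compound 5. Those for compound 4 included BRCA1 and RAD51AP1 (adjusted p = 0.037 and 0.047), while CHEK1 and BARD1 were lost. In the fit of only the 4 samples compared there were 2 for compound 5 and 3 for compound 6. Leaving out 1 library, compound 4 had between 0 and 15 members past it, compound 5 had between 0 and 12, and compound 6 and the pairs of compounds had 0. The cause of these differences was not tested.

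The median for compound 4 was −0.40 within day 1 and −0.46 within day 2, and from −0.64 to −0.41 when 1 library was left out. The median for compound 5 ran from −0.39 to −0.13 when 1 library was left out. The median for compound 6 was −0.32 in the Wald test of DESeq2, with its size factors, with at least 10 counts in every sample and without a filter, −0.33 in the fit of only the 4 samples compared, −0.30 with the replicate block, −0.16 within day 1, −0.41 within day 2 and from −0.42 to −0.18 when 1 library was left out.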

Other observations

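A list of 12 genes that are known to respond to DNA damage moved in both directions. Compounds 4 and 5 each lowered 3 and raised 2 of them. Over all genes tested, these compounds lowered 3.91% and 2.95% and raised 5.6% and 5.35%. Compound 6 changed 0 of the 12 at the adjusted threshold of edgeR, with 7 at an unadjusted p under 0.05 and 2 called by DESeq2. Of all 13400 genes tested, 2490 were at this unadjusted level for compound 6, and DESeq2 called 518. BTG2, an antiproliferative gene, was at 13.0 and 13.2 CPM under DMSO, 6.29 and 8.06 CPM with compound 4, 6.92 and 7.85 CPM with compound 5, and 7.36 and 7.30 CPM with compound 6, all below the controls. Its log2-fold changes were −0.86 ± 0.18 and −0.82 ± 0.18 for compounds 4 and 5 (adjusted p = 0.021 and 0.027) and −0.84 ± 0.19 for compound 6 (adjusted p = 0.068). DDB2, which recognises ultraviolet damage, fell by −0.72 ± 0.17 and −0.79 ± 0.16 with compounds 4 and 5 (adjusted p = 0.028 and 0.023), and SESN1, a stress-induced regulator of growth, by −0.65 ± 0.17 and −0.70 ± 0.17 (adjusted p = 0.041 and 0.036). In the Wald test of DESeq2 the calls of BTG2 for compound 5 and of SESN1 for compound 4 were lost, at adjusted p-values of 0.057 and 0.072.

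GADD45B, a stress-induced gene, rose with compound 4, from 10.6 and 8.96 CPM to 23.7 and 27.0 CPM, a log2-fold change of 1.38 ± 0.23 (adjusted p = 0.0097). GADD45A, its relative, rose with compounds 4 and 5, by 0.58 ± 0.14 and 0.51 ± 0.14 (adjusted p = 0.031 and 0.050). SESN2, which is induced by amino acid shortage, rose with compound 5, by 1.00 ± 0.26 (adjusted p = 0.046). CDKN1A, the inhibitor of the cell cycle kinases, had log2-fold changes of 0.24, −0.02 and 0.16 for compounds 4, 5 and 6, and none passed. These genes were chosen after their values were seen.

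CYP2C19, the overexpressed gene, was at 27.7 and 16.4 CPM under DMSO, 31.4 and 44.3 CPM with compound 4, 52.8 and 38 CPM with compound 5, and 23.9 and 21.2 CPM with compound 6. It rose with compound 5, by a log2-fold change of 1.05 ± 0.26 (adjusted p = 0.040), while compound 4 gave 0.79.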
